A study of Homo sapiens with 4 samples.

Results

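Replication initiation and RepID binding were examined in 2 gene-rich blocks of the short arm of human chromosome 6. The histone block spans 26 to 28 Mb, where the major cluster of histone genes lies, and the MHC block spans 28.5 to 33.5 Mb, where the major histocompatibility complex (MHC) lies. Members were all regions of the 3 deposited lists that start inside either block, on build hg19 as named in the submitters' processing notes. They number 1011 of 262748 regions in the series. The histone block holds 66 initiation regions of HCT116 cells with unaltered RepID (WT), 125 of RepID knockout HCT116 cells (KO) and 29 RepID-binding regions of U2OS cells. The MHC block holds 310, 350 and 131, respectively. The rest of chromosome 6, against which both blocks were compared, holds 3113 WT, 8570 KO and 939 RepID regions.

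HCT116 is a colon carcinoma line, and its knockout cells were made with CRISPR-Cas9 and a guide directed at an exon of RepID, followed by puromycin selection; the methods do not state whether they are 1 clone. U2OS is an osteosarcoma line, here carrying RepID with a FLAG tag, and its chromatin was precipitated with an anti-FLAG antibody. All cultures were asynchronous. Binding and initiation were therefore measured in different lines, and RepID in HCT116 cells was not measured in these lists. The series also holds a genomic DNA control of HCT116 cells, which was not analysed here. There was 1 library per condition, so no difference between WT and KO has a replicate check and no p-value is given. Intervals are 95% and allow for counting error alone. Regions side by side on a chromosome are not independent of each other, which makes these intervals too narrow. The lists give no read totals, so depth is unknown.

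Replication of human chromosomes begins at many origins, and the short nascent strands made there mark sites of initiation when they are purified by size and by their resistance to lambda exonuclease. RepID, the product of PHIP and also known as DCAF14, is a chromatin-binding protein that was isolated by its affinity for a replicator of the beta-globin locus. The histone genes of the cluster encode the linker histone H1 and the core histones H2A, H2B, H3 and H4, and most are transcribed in S phase, when new DNA is packaged. In the RefSeq gene order of a later build, 55 of the 74 protein-coding genes from H2AC1 to H2BC17 are histone genes, and 6 are butyrophilin genes, whose products regulate T cells. The next 38 protein-coding genes, up to HLA-F, include 11 zinc finger and 16 olfactory receptor genes. From HLA-F to HLA-DPB1 the order holds 128 protein-coding genes. They run from class I genes, which present peptides to cytotoxic T cells, through the class III genes, among them TNF and the complement genes C2, C4A and C4B, to class II genes such as HLA-DRA, which present peptides to helper T cells. This order is background: genes were not placed on the regions, since no annotation of the lists' build was used here.

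The MHC block was dense in WT initiation regions and in RepID regions, and less so in KO regions, while the densities of the histone block lay between those of the MHC block and of the rest of the chromosome. The WT list held 62 regions per Mb in the MHC block, 33 in the histone block and 19.2 in the rest of the chromosome. RepID regions numbered 26.2 per Mb in the MHC block, 14.5 in the histone block and 5.80 in the rest. KO regions numbered 70 per Mb, 62.5 and 52.9. Relative to the rest, the MHC block thus had 3.23 times the WT density (interval 2.86 to 3.63), 4.52 times the RepID density (3.74 to 5.43) and 1.32 times the KO density (1.19 to 1.47). For the histone block the ratios were 1.72 for WT (1.32 to 2.19), 2.50 for RepID (1.67 to 3.62) and 1.18 for KO (0.982 to 1.41). The RepID ratio of the histone block was 1.73 without its window from 27 to 27.5 Mb (0.962 to 2.86). For regions scored at or above their list median, its ratios were 1.15 for WT (0.687 to 1.80) and 1.83 for RepID (0.871 to 3.39). These 3 intervals include 1. Against the rest of the short arm alone, the MHC block kept ratios of 2.03 for WT and 3.03 for RepID. The WT ratio of the histone block came to 1.08 (0.831 to 1.38) in that comparison, an interval that includes 1.

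The WT regions of the MHC block were also wider and higher in score than those of the rest, and those of the histone block were not. Median widths were 2600 bp for WT regions in the MHC block, 1900 bp in the histone block and 2000 bp in the rest. Regions of 5 kb or more made up 71 of 310 WT regions in the MHC block (22.9%, interval 18.3 to 28.0), 2 of 66 in the histone block (3.03%, 0.369 to 10.5) and 12.7% in the rest (11.5 to 13.9). Part of this was shared by other windows of 0.5 Mb that were dense in WT regions. In the 65 with at least 16 of them, 17.5% were that wide (15.9 to 19.3), a difference of 5.36 points from the MHC block (0.699 to 10.6). The median of the windows' median WT scores was 112.5 in those 65 and 141 in the 10 windows of the MHC block. Scores can be compared only within a list, and what the score of the initiation lists counts is not given in the sources used here. The median WT score was 154 in the MHC block, at percentile 57.9 of the whole WT list, 89.5 in the histone block (percentile 37.8) and 104 in the rest (percentile 44.0). KO regions of the MHC block, the histone block and the rest had median widths of 2900, 2800 and 2800 bp and median scores of 134, 131 and 122, at percentiles 52.7, 50.8 and 44.9 of the KO list. RepID regions had median widths of 542 bp in the MHC block, 432 bp in the histone block and 527 bp in the rest, and median scores of 196, 156 and 189.

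Each block was divided into windows of 0.5 Mb, HW1 to HW4 for the histone block and MW1 to MW10 for the MHC block. The other 324 windows of chromosome 6 that hold a region of any list had a median of 4 WT regions (quartiles 2 and 12), 26 KO regions (19 and 34) and 1.5 RepID regions (0 and 4).

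**Figure D1:**
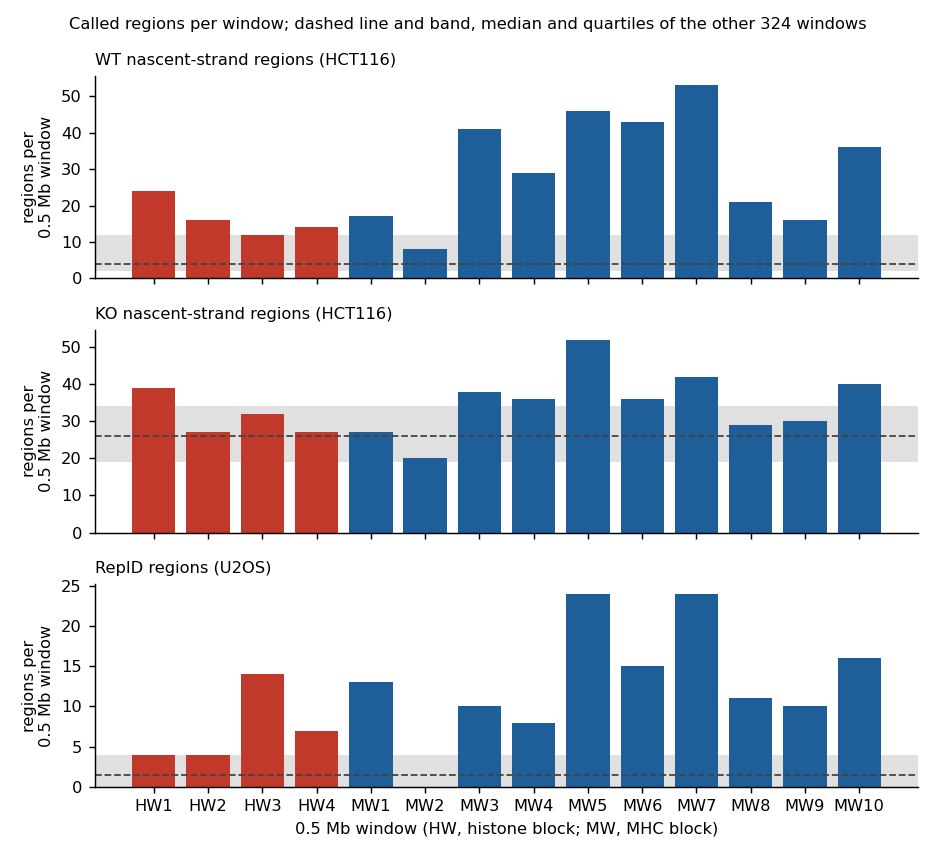
Regions per 0.5 Mb window in the WT, KO and RepID lists (bars; red, histone block; blue, MHC block), with the median (dashed line) and quartiles (grey band) of the other 324 windows of chromosome 6. WT bars rise from 8 in MW2 to 53 in MW7, whereas 7 of the 14 KO bars lie inside the band; MW2 has no RepID region.

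Within the MHC block the windows differed by several fold. MW7 (31.5 to 32 Mb) held 53 WT regions, a number exceeded by 1 of the 324 other windows. Its WT regions covered 54.1% of its bases and their median width was 3800 bp, with a median score of 485. Such values did not end at the border of the block. In the next window beyond it, from 33.5 to 34 Mb, 44 WT regions covered 71.0% of the bases. Their median width was 5000 bp and their median score 516, and the window held 13 RepID regions. MW5 (30.5 to 31 Mb) held 46 WT regions and 52 KO regions, a KO number exceeded by 3 other windows. MW5 and MW7 each held 24 RepID regions, which no other window of the chromosome exceeded. MW3, MW6 and MW10 held 41, 43 and 36 WT regions, and MW4 held 29.

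At the opposite end was MW2 (29 to 29.5 Mb), with 8 WT regions, 20 KO regions and no RepID region. It takes in the longest stretch of the MHC block without a WT region, 309.4 kb from 29098201 to 29407600, which held 10 KO regions. It also lies within the longest stretch without RepID, 638 kb from 28956539 to 29594961, in which 13 WT and 32 KO regions were called. MW1 (28.5 to 29 Mb) combined 13 RepID regions with 17 WT regions of low score, the median being 65. The remaining windows, MW8 and MW9, held 21 and 16 WT regions and 11 and 10 RepID regions. MW8 (32 to 32.5 Mb) had fewer but larger WT regions than MW7; their median width was 5000 bp and their median score 745, at percentile 89.3 of the list. A stretch of 97.4 kb at the border of MW8 and MW9, from 32450601 to 32548000, held no region of any list.

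The windows of the histone block ranged from 12 to 24 WT regions, from 27 to 39 KO regions and from 4 to 14 RepID regions. HW1 (26 to 26.5 Mb) held 24 WT, 39 KO and 4 RepID regions, and HW2 (26.5 to 27 Mb) held 16, 27 and 4. HW3 (27 to 27.5 Mb) held 12 WT and 32 KO regions and 14 of the 29 RepID regions of the block. HW4 (27.5 to 28 Mb) held 14, 27 and 7. RepID regions were therefore most numerous in HW3, while WT initiation regions were most numerous in HW1. The longest stretch without RepID, 264.6 kb from 26659965 to 26924590, lay in HW2 and contained 10 WT and 15 KO regions.

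WT and KO regions came close to equal numbers in the MHC block and not in the histone block. There were 1.13 KO regions per WT region in the MHC block, 1.89 in the histone block and 2.75 in the rest of the chromosome; over the whole lists the number was 2.02. In covered bases the ratio of KO to WT was 0.997 in the MHC block, where each list covered a similar share of the bases (23.7% for KO and 23.8% for WT). The histone block had a ratio of 3.13, with 21.3% of bases covered by KO regions and 6.80% by WT regions. MW3, MW6 and MW7 held more WT than KO regions, as did 21 of the 324 other windows. The near-equal numbers were not particular to the MHC block. In the 65 other windows with at least 16 WT regions, the median was 1.18 KO regions per WT region, and the median of the 10 MHC windows was 1.19. The 41 other windows with 12 to 24 WT regions, the numbers seen in the histone block, had a median of 1.83, against 1.81 for the 4 histone windows.

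**Figure D2:**
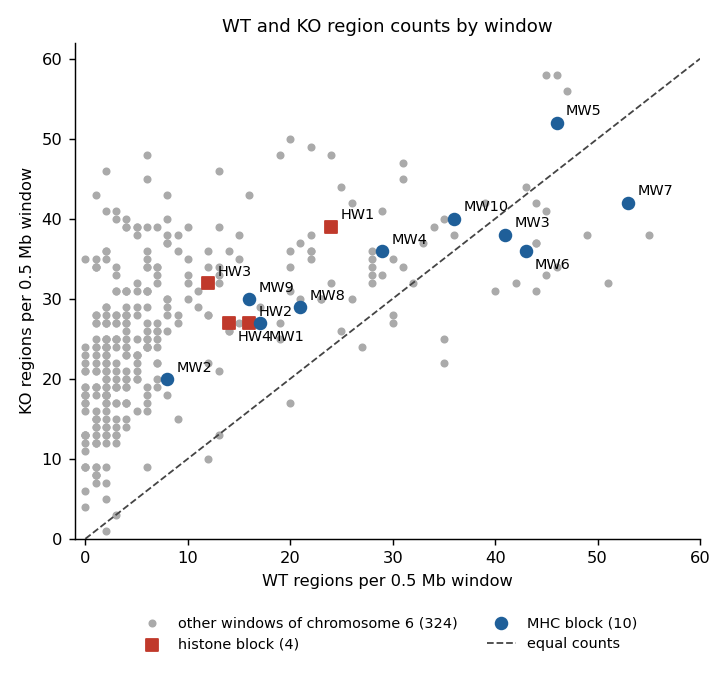
WT regions (x axis) and KO regions (y axis) per 0.5 Mb window of chromosome 6 (grey, 324 other windows; red squares, histone block; blue circles, MHC block); the dashed line marks equal counts. MW3, MW6 and MW7 lie below the line, and the histone windows lie above it, among other windows with similar WT counts.

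MW7 and MW8 ranked higher by score in the WT list than in the KO list, and HW2 ranked lower. For each window the median percentile of its KO regions in the KO list was taken from the median percentile of its WT regions in the WT list. In the 161 other windows with at least 5 WT regions this difference had a median of -6.61 points, with quartiles of -18.9 and 5.94. MW7 stood at 36.2 points, exceeded by 1 of the 161, and MW8 at 23.9 points, exceeded by 9. HW2 stood at -37.5 points, with 158 of the 161 above it. The other MHC windows lay between -15.2 points in MW10 and 11.2 points in MW9, with MW6, next to MW7, at -14.8 points. The other histone windows lay between -20.7 and 5.21 points. In HW2 the KO regions had a median score of 198 (percentile 77.9), and 8 of the 27 were 5 kb wide or more. Its WT regions had a median score of 95.5 (percentile 40.5). Width and score rise together in the initiation lists (Spearman's rho 0.910 over the 310 WT regions and 0.943 over the 350 KO regions of the MHC block, a description across regions of 1 library each), so a high rank describes a wide region as well as a high score.

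**Figure D3:**
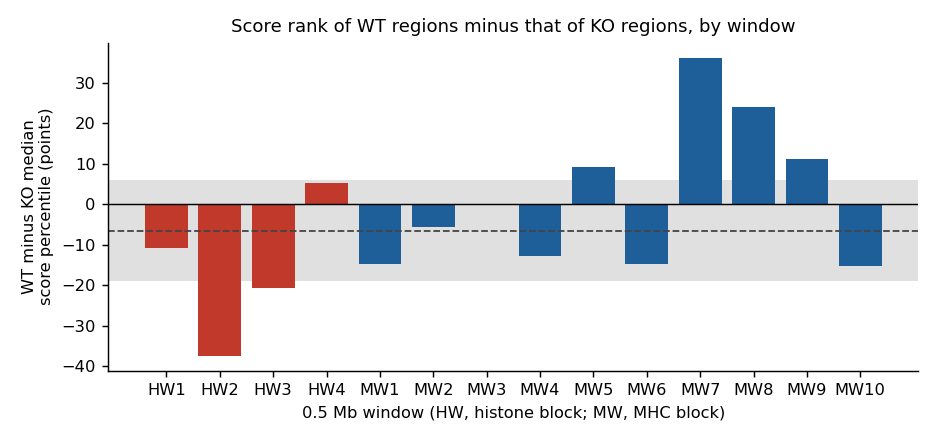
Median score percentile of WT regions minus that of KO regions (points), by 0.5 Mb window, each percentile taken in its own list; dashed line and grey band, median and quartiles of the 161 other windows of chromosome 6 with at least 5 WT regions. MW7 and MW8 lie far above the band and HW2 far below it.

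Of the 5 highest-scoring KO regions of the histone block, 4 lay in HW2, at distances of 13876 to 91636 bp from the nearest RepID region. The highest, chromosome 6 from 26751601 to 26761000, had a score of 900 (percentile 99.5 of the KO list) and overlapped a WT region of 3600 bp with a score of 171. The next, from 26696801 to 26707400 with a score of 717, had no WT region within 14600 bp. The third, from 26632601 to 26645600 with a width of 13000 bp and a score of 574, had none within 17200 bp. The KO region from 26728001 to 26739000 (score 537) covered a WT region with a score of 76. The only one of the 5 outside HW2, from 26022401 to 26035400 in HW1 (score 500), contained 2 WT regions with scores of 37 and 61 and a RepID region with a score of 146.9. The WT region with the second-highest score of the block, from 26862001 to 26868000 in HW2 (score 597), had no KO region within 6200 bp and no RepID region within 56590 bp.

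RepID regions of the histone block lay away from WT initiation more often than elsewhere on the chromosome. A WT region was found within 2 kb of 12 of the 29 RepID regions of the histone block (41.4%, interval 23.5 to 61.1), against 118 of 131 in the MHC block (90.1%, 83.6 to 94.6) and 796 of 939 in the rest (84.8%, 82.3 to 87.0). Over the whole RepID list the share was 91.1%. The histone block differed from the rest by -43.4 points (interval -59.4 to -25.3). Against the 41 windows with similar WT counts the difference was -42.7 points (-59.4 to -23.6). It narrowed to -20.4 points (-38.7 to -6.46) when a distance of 10 kb was allowed, with 20 of 29 RepID regions near WT initiation. The MHC block did not differ from the rest beyond counting error, at 5.31 points (-1.37 to 10.0). Of the 29 RepID regions in the histone block, 7 had a WT and a KO region within 2 kb, 5 a WT region alone, 9 a KO region alone and 8 neither. RepID regions of the histone block were also further apart, with a median of 15.2 kb to the nearest other RepID region, compared with 2.54 kb in the MHC block and 2.60 kb in the rest.

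RepID regions often lay away from WT regions in all windows of the histone block and onward into MW1. Near WT regions were 2 of 4 RepID regions in HW1, 1 of 4 in HW2, 5 of 14 in HW3, 4 of 7 in HW4, 5 of 15 in the window between the blocks (28 to 28.5 Mb) and 7 of 13 in MW1. All of the 15, 16 and 10 RepID regions in MW6, MW10 and MW3 had a WT region within 2 kb, as did 21 of 24 in MW5 and 22 of 24 in MW7. In the 17 windows outside the blocks with at least 13 RepID regions, the window between the blocks among them, the median share near WT was 95.7%. The lowest was a window at 79.5 to 80 Mb, where none of 18 RepID regions was near a WT region. Whether that window holds the gene of RepID itself, where reads of the tagged construct could be counted, was not tested. Without that window the share in the rest was 86.4%, and the difference of the histone block from it was -45.0 points.

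The highest-scoring RepID region of the histone block, from 27145154 to 27145884 (score 592.46, percentile 89.4 of the RepID list), had its nearest WT region 9116 bp away and its nearest KO region 1516 bp away. The second, from 27218304 to 27219247 (score 388.89), and the fifth, from 27219366 to 27219931 (score 251.81), lay 118 bp apart inside the widest and highest-scoring WT region of the block. That WT region, from 27214801 to 27221200 (score 769), was overlapped by 2 KO regions that covered 81.25% of it. The third RepID region, from 27279815 to 27280697 (score 368.25), lay in a KO region and 58614 bp from the nearest WT region. The RepID region that ranked after it, from 27342286 to 27343028 (score 334.88), had neither list within 2 kb. All 5 were in HW3.

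The RepID regions of the MHC block with high scores were, in contrast, inside large WT regions. The highest, from 30851212 to 30853481 in MW5 (score 1241.05, percentile 98.3), was also the widest, at 2270 bp. It lay in a WT region from 30847601 to 30854800 with a score of 2251, in which only 2 narrow KO regions were called, with scores of 43 and 70. The next, from 33174961 to 33176343 in MW10 (score 814.88), lay in a WT region of 10800 bp with a score of 2549. On either side of it lay a KO region, from 33168801 to 33174600 and from 33176801 to 33183600, and neither overlapped it. The RepID region from 29855022 to 29856571 in MW3 (score 778.49) was inside a WT region with a score of 606 and 1629 bp from the nearest KO region. That from 30523016 to 30524632 in MW5 (score 764.9) was overlapped by a WT region with a score of 524 and a KO region with a score of 229. That from 32163709 to 32165011 in MW8 (score 703.55) was in a WT region of 10000 bp and 989 bp from the nearest KO region. Of these 5 RepID regions, all overlapped a WT region and 2 overlapped a KO region. RepID regions in MW3 were the highest in score of any window in the blocks, with a median of 534 for its 10 regions (percentile 86.5).

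WT regions with RepID nearby made up a larger share in the MHC block than in the rest or the histone block. A RepID region lay within 2 kb of 80 of 310 WT regions in the MHC block (25.8%, interval 21.0 to 31.1), of 8 of 66 in the histone block (12.1%, 5.38 to 22.5) and of 18.7% in the rest of the chromosome (17.3 to 20.1). The share over the whole WT list was also 18.7%. The MHC block exceeded the rest by 7.11 points (2.34 to 12.4) and the histone block by 13.7 points (2.68 to 21.5). The histone block differed from the rest by -6.57 points (-12.6 to 3.53), and from the 41 windows with similar WT counts, where 12.8% were bound, by -0.699 points (-7.13 to 9.57). Both intervals include 0. Counting only RepID regions scored at or above the list median, 3.03% of the WT regions of the histone block were bound, and the difference from the rest was -8.08 points (-10.6 to -0.647), which excludes 0. RepID-bound WT regions of the MHC block, as those with a RepID region within 2 kb are called here, were larger than the others. Their median width was 4000 bp and their median score 402, against 2200 bp and 117 for WT regions without RepID. In the rest the medians were 2600 bp and 209 with RepID, and 2000 bp and 90 without. Of the 71 WT regions of 5 kb or more in the MHC block, 33 were bound (46.5%, 34.5 to 58.7), compared with 30.6% in the rest (26.1 to 35.4). For the 8 bound WT regions of the histone block the medians were 1800 bp and 64, and they included the widest WT region of that block, at 6400 bp.

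Next it was asked how many WT regions were kept, that is, overlapped by a KO region by at least 1 bp. In the MHC block 203 of 310 WT regions were kept (65.5%, interval 59.9 to 70.8), in the histone block 42 of 66 (63.6%, 50.9 to 75.1) and in the rest 58.0% (56.2 to 59.7). The share over the whole WT list was 60.6%. The MHC block exceeded the rest by 7.50 points (1.78 to 12.9). It exceeded the 65 windows with at least 16 WT regions, of which 61.0% were kept, by 4.50 points (-1.35 to 10.0), so against windows of similar density the difference was within counting error. KO regions covered 23.7% of all bases in the MHC block and 16.5% in the rest. Relative to that, they covered WT bases 1.94 times as much in the MHC block and 2.62 times as much in the rest. The part of KO coverage in the kept share was not tested. The histone block differed from the rest by 5.65 points (-6.53 to 16.4). By window the kept share ran from 37.5% in MW2 (3 of 8) and 50% in HW3 and HW4 to 75% in HW2 and MW10, 76.1% in MW5 and 81.25% in MW9. The intervals of single windows overlap throughout. Kept WT regions were wider than the others in both blocks, with medians of 3000 and 1600 bp in the MHC block and 2200 and 1400 bp in the histone block.

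WT regions of the histone block were covered more completely than those of the rest. The 2 blocks were not tested against each other in this. KO regions lay over the centre of 41 of 66 WT regions in the histone block (62.1%, interval 49.3 to 73.8), 47.1% in the MHC block (41.4 to 52.8) and 43.1% in the rest (41.3 to 44.8). The histone block thus exceeded the rest by 19.0 points (6.86 to 29.9). Among its WT regions, 24 of 66 lay entirely within KO regions (36.4%, 24.9 to 49.1), against 21.3% in the MHC block (16.9 to 26.3) and 24.6% in the rest (23.1 to 26.2). The excess of the histone block over the rest in that share was 11.8 points (1.09 to 23.9). A kept WT region had a median of 100% of its bases covered by KO regions in the histone block, 69.7% in the MHC block and 82.6% in the rest. KO regions also covered more of all bases in the histone block, 21.3% against 16.5% in the rest. Their coverage of WT bases was 2.80 times their coverage of all bases in the histone block and 2.62 times in the rest. Only 3.03% of WT regions in the histone block were 5 kb or wider, against 12.7% in the rest. The part of KO coverage and of width in these differences was not tested. In the MHC block 33 of 310 WT regions overlapped 2 or more KO regions (10.6%, 7.44 to 14.6), compared with 6.33% in the rest (5.50 to 7.24). Wide WT regions were more frequent in the MHC block, and this share was not compared within classes of width.

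RepID-bound WT regions were kept less often than the others along the rest of the chromosome. With all widths pooled, no such deficit was detected in the MHC block or in other windows dense in WT regions. In the rest, 50.5% of bound WT regions were kept (46.4 to 54.7) and 59.7% of those without RepID (57.8 to 61.6), a difference of -9.18 points (-13.7 to -4.70). Over the whole lists the shares were 56% and 61.7%. In the MHC block 55 of 80 bound WT regions were kept (68.8%, 57.4 to 78.7) and 148 of 230 without RepID (64.3%, 57.8 to 70.5), a difference of 4.40 points (-7.92 to 15.5). Bound regions were wider there, and wider regions were kept more often. Below 2 kb, 6 of 16 bound regions (37.5%) and 48 of 98 without RepID (49.0%) were kept. From 2 to 5 kb these were 20 of 31 (64.5%) and 69 of 94 (73.4%). From 5 kb the order was reversed, at 29 of 33 (87.9%) and 31 of 38 (81.6%). The intervals overlap in each class, so no difference is resolved in any of them. In the 65 other windows with at least 16 WT regions the shares over all widths were 59.5% and 61.3%, a difference of -1.76 points (-7.60 to 3.90). The lack of a pooled deficit was therefore not particular to the MHC block. Bound regions of the MHC block exceeded bound regions of the rest by 18.2 points (6.69 to 28.2), while the regions without RepID differed by 4.65 points (-2.01 to 10.9). Over bound regions of those 65 windows the excess was 9.23 points (-2.75 to 19.8), an interval that includes 0. In the histone block 5 of 8 bound WT regions and 37 of 58 without RepID were kept, too few for a difference to be detectable.

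The same contrast was wider at the centres of the WT regions. KO regions covered the centre of 39 of 80 bound WT regions in the MHC block (48.8%, interval 37.4 to 60.2) and of 147 of 582 in the rest (25.3%, 21.8 to 29.0). The difference was 23.5 points (12.2 to 34.8). In the histone block 5 of 8 bound centres were covered, 37.2 points above the rest (5.10 to 61.3). Centres of WT regions without RepID were covered in 46.5% of the MHC block and 47.2% of the rest, a difference of -0.653 points (-7.28 to 6.08). In the histone block 62.1% of them were covered, 14.9 points above the rest (1.88 to 26.4). Within the MHC block, bound WT regions differed from those without RepID by 2.23 points (-10.2 to 14.7), whereas in the rest they differed by -21.9 points (-25.8 to -17.8).

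Density and width moved with this result, and their part in it was not tested beyond the following values. Against the 65 other windows with at least 16 WT regions, in which 32.9% of bound centres were covered (27.9 to 38.3), the difference was 15.8 points (3.96 to 27.6). Among WT regions of 5 kb or more, 21 of 33 bound centres were covered in the MHC block (63.6%, 45.1 to 79.6) and 39.7% in the rest (30.9 to 49.0). Among narrower ones the shares were 18 of 47 (38.3%, 24.5 to 53.6) and 21.5% (17.8 to 25.5). The difference was therefore present in both width classes, at 24.0 points (4.76 to 40.4) and 16.8 points (3.70 to 31.5). In the kept share by 1 bp it was smaller within classes of width. Below 2 kb, 37.5% of bound WT regions were kept in the MHC block and 27.7% in the rest. From 2 to 5 kb the shares were 64.5% and 53.3%, and from 5 kb 87.9% and 80.2%, with overlapping intervals in each class.

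**Figure D4:**
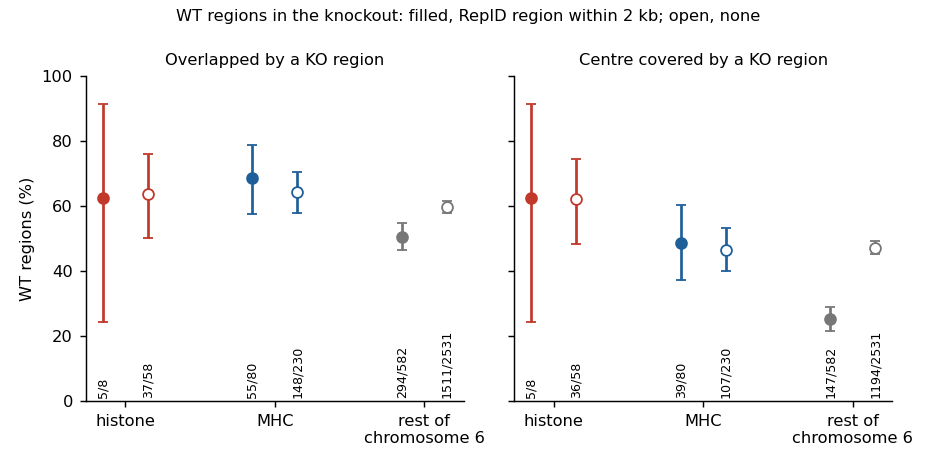
Percentage of WT regions overlapped by a KO region (left) and with their centre covered by one (right), for WT regions with a RepID region within 2 kb (filled) and without (open); bars are exact binomial 95% intervals and the fractions give the counts. In the rest of chromosome 6 the filled point lies below the open one in both panels, and at the centre the MHC block has 48.8% and 46.5% against 25.3% and 47.2% in the rest.

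Profiles around the centres of RepID regions showed the position of initiation in both HCT116 cell types. WT regions covered 86.3% of the RepID centres in the MHC block (interval 79.2 to 91.6), 78.3% in the rest and 31.0% in the histone block (15.3 to 50.8). KO regions covered 29.0% of the RepID centres in the MHC block (21.4 to 37.6), 15.2% in the rest (12.99 to 17.7) and 10 of 29 in the histone block (34.5%, 17.9 to 54.3). KO coverage in the MHC block was 34.7% at 1 kb, 36.6% at 3 kb, 33.6% at 5 kb and 29.8% at 9 to 10 kb. The interval at the centre includes these 4 levels but not the highest level, 37.8% at 3.5 kb, which was picked from all distances. In the rest KO coverage was 21.1%, 24.9%, 22.7% and 20.9% at these distances, all above the interval at the centre. That interval is narrower, as it rests on 939 RepID regions against 131 in the MHC block. KO coverage was thus lower at the centre than at 3 kb by more than counting error in the rest. In the MHC block the difference between centre and 3 kb was within counting error. Whether the MHC block and the rest differ in this was not tested. At the centres the MHC block exceeded the rest by 13.8 points (6.29 to 22.3) and the histone block did so by 19.3 points (4.51 to 37.6). KO coverage in the histone block was 14.9% at 9 to 10 kb. Over all bases, KO regions covered 23.7% of the MHC block, 21.3% of the histone block and 16.5% of the rest.

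**Figure D5:**
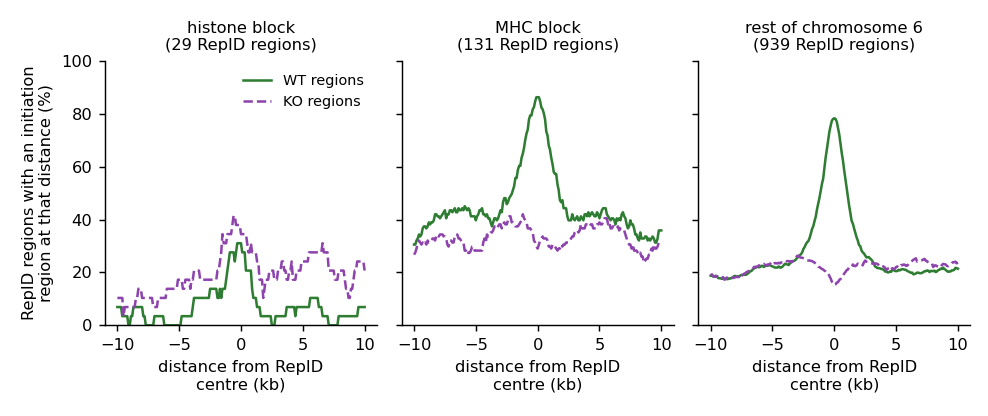
Percentage of RepID regions with a WT region (solid green) or a KO region (dashed purple) at each distance from the RepID centre (kb), in the histone block, the MHC block and the rest of chromosome 6. WT coverage peaks at the centre in all 3, at 31.0%, 86.3% and 78.3%. KO coverage is lower at the centre than at 3 kb in the rest (15.2% and 24.9%). In the MHC block the values are 29.0% and 36.6%, and the interval at the centre includes the level at 3 kb. In the histone block KO coverage is not lower at the centre (34.5% and 19.0%).

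The 5 highest-scoring WT regions of the MHC block were each covered in part by 1 to 4 KO regions. The highest-scoring one, from 33127801 to 33149400 in MW10 (score 6505, percentile 99.4), was 21600 bp wide, held 1 RepID region and was overlapped by 4 KO regions that covered 52.8% of it. The widest, from 33377201 to 33403200 in MW10 (26000 bp, score 4685), held 3 RepID regions and was overlapped by 3 KO regions that covered 63.1%. In MW8, the WT region from 32001401 to 32019800 (18400 bp, score 4579) had no RepID region within 24951 bp, and a single KO region covered 25% of it. The WT region from 30646601 to 30659600 in MW5 (score 3189) contained 5 RepID regions, and a KO region of 8600 bp covered 66.2% of it. That KO region took in 4 of the RepID regions and overlapped the other in part. The WT region from 33279801 to 33292800 in MW10 (score 3113) held 3 RepID regions and was 47.7% covered.

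The 3 highest-scoring RepID-bound WT regions of the MHC block that no KO region overlapped lay in MW7 and MW8. They were from 31694801 to 31699400 (score 1534, with 1 RepID region), from 31863801 to 31870800 (score 1248, with 3 RepID regions, the highest scoring 640.87) and from 32035201 to 32044000 (score 836, with a RepID region 751 bp away). The first of these had a KO region only 200 bp away, the second 1800 bp away and the third 8600 bp away. In the histone block the bound WT regions that no KO region overlapped were small, from 27114001 to 27115200 (score 53), from 26199601 to 26200400 (score 41) and from 27637401 to 27638000 (score 39). Their nearest KO regions were 9200, 30600 and 9200 bp away.

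KO regions of the MHC block lay near WT initiation more often than those of the rest as a whole. A WT region was within 2 kb of 246 of 350 KO regions in the MHC block (70.3%, interval 65.2 to 75.03), of 48 of 125 in the histone block (38.4%, 29.8 to 47.5) and of 26.2% in the rest (25.3 to 27.2). The share over the whole KO list was 36.7%. The MHC block exceeded the rest by 44.1 points (39.0 to 48.7), but in the 65 other windows with at least 16 WT regions the share was 62.4% (60.4 to 64.4). KO regions of both blocks without a WT region nearby were narrower than those with one, with medians of 2600 and 3100 bp in the MHC block and 2600 and 3700 bp in the histone block. The highest-scoring of them in the MHC block were from 32443401 to 32450600 in MW8 (score 378), from 30270401 to 30280200 in MW4 (score 353) and from 28908001 to 28914600 in MW1 (score 340). In the histone block they reached scores of 717, 574 and 485, and all 3 were in HW2. The KO region of highest score in the MHC block, from 31924401 to 31938800 in MW7 (score 608), overlapped 2 WT regions with scores of 778 and 1374 and 1 RepID region.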

How the data were processed

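Nascent strands from WT and RepID KO HCT116 cells and FLAG-RepID chromatin from U2OS cells were sequenced, with 1 library per condition. The authors deposited 3 lists of enriched regions, giving the start, the end and a score of every region. They called RepID regions with MACS against genomic input of the same line. The caller of the HCT116 lists and the meaning of their score are not given in the sources used here; the submitters' processing notes name MACS, SICER and hg19, and all regions of both initiation lists lie on a grid of 200 bp. Positions are counted from 1.

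Regions were placed by their start in windows of 0.5 Mb, and 5 windows of chromosome 6 without any region were left out. WT regions were bound if a RepID region was no more than 2 kb away, and kept if they shared 1 bp or more with a KO region. Shares have exact binomial (Clopper-Pearson) 95% intervals, their differences Newcombe intervals, and density ratios intervals from the binomial share of both counts. Named regions are, in each block, the 5 highest-scoring of each list, the widest of each list, the 3 highest-scoring bound WT regions without a KO region and the 3 highest-scoring KO regions without a WT region within 2 kb. The members and lists were chosen with earlier results of these data known. Calculations used SciPy 1.17.1, pandas 2.3.3 and numpy 2.4.6 under Python 3.11.15. The overlap functions were tested on simulated data and against bedtools 2.31.1. Genes and sequences were not placed, since the gene table used here (RefSeq, GRCh38.p14) is of another build and served only for names and their order. Alternatives covered distances, score thresholds, merging, equal list lengths, other comparison windows and leaving out each window.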

Additional observations from a re-analysis of the deposited data

How the results depend on the processing

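No paired analysis was possible because each condition has 1 library. Of 79 alternatives over 16 results that left out no window, 59 stayed inside the interval of the reported value, 20 moved outside it and none turned the direction of a difference whose interval excludes 0; the 112 values without 1 window all stayed inside. For the listed changes the cause was not tested, apart from looser or stricter definitions giving larger or smaller shares.

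With regions scored at or above their list median, the density ratio to the rest of chromosome 6 was 1.15 for WT in the histone block (0.687 to 1.80, which includes 1), 4.27 for WT and 1.56 for KO in the MHC block. Against the rest of the short arm it was 1.08 for WT in the histone block, and 2.03 for WT and 3.03 for RepID in the MHC block. The RepID-bound share of WT regions with RepID regions scored at or above the median was 3.03% in the histone block and 16.1% in the MHC block. In the MHC block it was 35.8% at 5 kb and 37.9% for WT regions scored at or above the median, for which the histone block differed from the rest by -19.5 points. The kept share in the MHC block was 48.1% at 50% coverage, 47.1% at the centre, 75.8% within 2 kb, 46.8% with KO and WT lists of equal length and 74.0% for WT regions scored at or above the median. With lists of equal length it was 45.5% in the histone block. The kept difference of the histone block from the rest was 18.2 points at 50% coverage and 19.0 points at the centre. The interval of the kept difference of the MHC block included 0 at 50% coverage (4.15 points), at the centre (4.02 points), against the rest of the short arm (5.19 points) and against windows with at least 16 WT regions (4.50 points). RepID regions near WT in the histone block differed from the rest by -20.4 points at 10 kb. That result, the covered centres of bound regions and the comparisons with windows of similar WT counts were chosen after seeing the data.

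Without 1 window, density ratios ranged from 1.46 to 1.87 (WT), 1.08 to 1.24 (KO) and 1.73 to 2.88 (RepID) in the histone block, and from 2.97 to 3.49, 1.25 to 1.39 and 4.10 to 5.02 in the MHC block. The lowest RepID ratio of the histone block, 1.73 (0.962 to 2.86), was that without HW3, and with scores at or above the median it was 1.83 (0.871 to 3.39). Bound shares ranged from 9.62% to 14.3% (histone) and 24.9% to 26.6% (MHC), and their differences from the rest from -9.08 to -4.41 and from 6.21 to 7.90 points. Kept shares ranged from 59.5% to 67.3% and from 63.6% to 67.4%, and their differences from 1.54 to 9.33 and from 5.65 to 9.43 points. RepID near WT in the histone block ranged from -48.4 to -38.1 points, and the covered centres of bound regions in the MHC block from 21.1 to 27.6 points. Only 8 bound WT regions in the histone block limit what can be said of them.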
